A study of Mus musculus with 4 samples.

Results

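The semaphorin, ephrin, Slit and netrin ligands and their plexin, Eph, Robo and Unc5 receptors were followed in Flk-1-positive mesoderm from mouse embryonic stem (ES) cells. Members were taken by gene symbol, from Sema3 to Sema7, Plxna to Plxnd, Epha and Ephb, Efna and Efnb, Robo, Slit, Ntn and Unc5a to Unc5d, from probe sets that the platform's annotation pairs with exactly 1 symbol. Of 14860 genes with such a probe set, 59 were members, on 60 probe sets. Of the 59, Unc5cl was taken by its prefix alone and is no guidance receptor, which left 58 guidance genes: 30 ligands and 28 receptors. A probe set shared by Ephb6 and Mon2 was left out because it has 2 symbols.

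Each of 4 groups was measured on 1 array. All cells were sorted for Flk-1 (gene Kdr), the VEGF receptor that marks mesoderm with blood and vessel potential, on day 3 of ES cell differentiation in serum. The groups were iER71 ES cells, which carry an inducible ER71 (gene Etv2, an ETS-family transcription factor of early vessel and blood formation), given doxycycline at 1 mg/ml between day 2 and day 3; untreated iER71 ES cells; an ES line without Er71 (Er71-/-), called Er71-deficient; and wild-type ES cells. Per the labels, both iER71 arrays have a wild-type genotype. They do not say whether each line is a single clone, and ES cells had been kept on embryonic fibroblast feeders.

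The labels of the inducible line contradict each other. The array whose source, characteristics and treatment field give doxycycline is titled control, and the array described as untreated is titled ER71 overexpressed. Arrays are named here by the doxycycline labels, and taking the titles instead would turn the sign of each iER71 difference. Etv2 had a log2 intensity of 10.50 on the array labelled doxycycline-treated, against 10.05 on the untreated one (1.37-fold). It had 8.89 on the array labelled Er71-deficient, against 9.39 in wild type (1.42-fold lower). Both Etv2 differences were under 2-fold, and the position of the Etv2 probes relative to the deleted part is not known here. Etv2 therefore checks the labels only weakly. Of 24 endothelial markers, 18 were at least 2-fold brighter on the array labelled doxycycline-treated than on the untreated one, and none 2-fold dimmer. In Er71-deficient cells 12 of them were at least 2-fold below wild type and none 2-fold above. Which of the iER71 labels is right was not tested. Kdr, the sort marker, was bright on each array, at 10.19 with doxycycline, 9.96 untreated, 9.67 in Er71-deficient and 9.89 in wild-type cells.

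Guidance cues steer growing axons and vessels by attraction or repulsion, and the 4 ligand families each have their own receptors. Semaphorins act through plexins, with neuropilins as co-receptors for most of the secreted class 3. Ephrins are tethered to the cell surface and bind Eph receptor tyrosine kinases on neighbouring cells; the pair of ephrin-B2 and EphB4 marks arterial and venous endothelium. Slits signal through Robo receptors, and netrins through Dcc and the Unc5 receptors. In vessels, Plxnd1, Ephb4, Efnb2, Robo4 and Unc5b are the members best known for endothelial expression.

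The values are linear intensities that the authors had already summarised and normalized, and log2 was taken of them. A gene was called detected when at least 1 array was at or above log2 6.16, the median over the whole table. Detected were 38 of the 59 members, 19 ligands and 19 receptors, and 8843 of the 14860 genes. The correlation between arrays over all probe sets lay between 0.967 and 0.979 (Pearson's r on the log2 scale). With 1 array per group there was no replicate, no test and no error for any gene. Differences were called by size alone, from 1 upwards on the log2 scale (2-fold). Some members passed the detection filter only through the array where they were bright, so counts over detected members are descriptions. The size of a fold against an array below the detection level is uncertain for any gene.

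In the iER71 pair, Plxnd1 and Sema6d were 2-fold or more above the untreated array with doxycycline, 2 of 38 detected members (5.26%), against 2.41% of all 8843 detected genes. A further 5 (13.2%) were at least 2-fold lower with doxycycline, namely Epha4, Sema3a, Plxna2, Plxna4 and Efna5, against 1.23% of all detected genes. In the Er71 pair, 3 members (7.89%) were at least 2-fold lower in Er71-deficient cells, namely Plxnc1, Sema3a and Unc5c, against 1.58% of all detected genes. No member was at least 2-fold higher there, where 0.43% of detected genes were. Those 9 genes, 6 receptors and 3 ligands, were the members past 2-fold in either pair, or 23.7% of the detected members, against 4.82% of all detected genes. With an offset of 32 added to the linear values, Plxna2 (-0.95), Plxna4 (-0.84) and Efna5 (-0.95) were under 2-fold, which left 2 members lower with doxycycline.

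**Figure D1:**
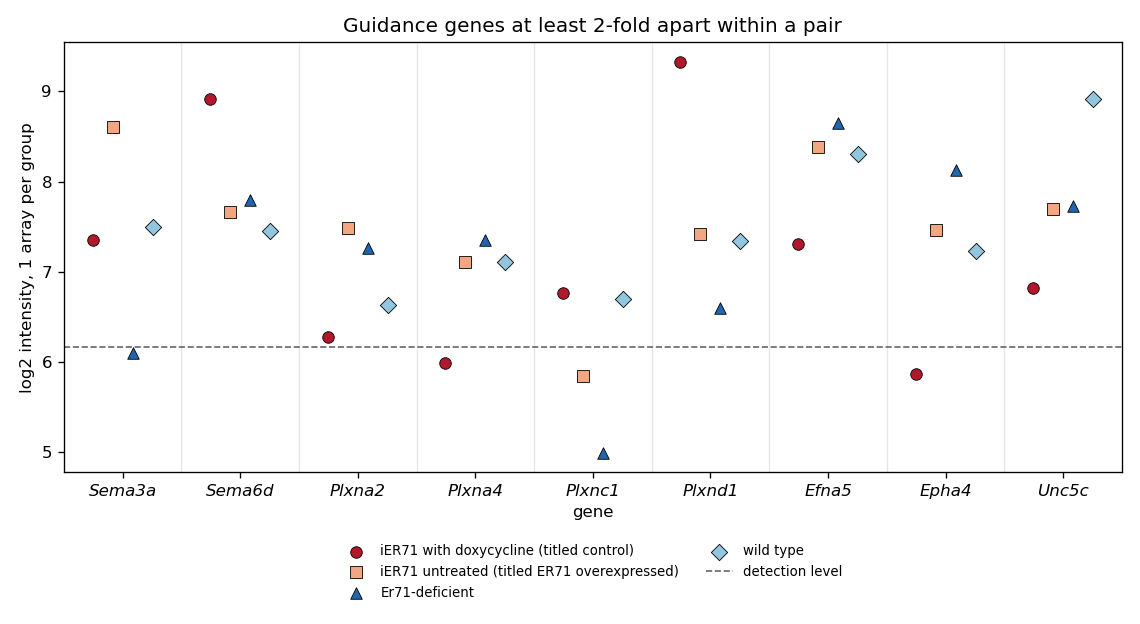
Log2 intensity (vertical axis) of the 9 guidance genes at least 2-fold apart within a pair (horizontal axis); each symbol is 1 array, and the dashed line is the detection level at log2 6.16. Plxnd1 and Sema6d stand highest with doxycycline, Epha4 and Plxna4 lie below the detection level there, and Sema3a and Plxnc1 are lowest in Er71-deficient cells; levels of different genes cannot be compared.

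Promoter windows are shown for Plxnd1, the member with the largest difference with doxycycline, for Epha4, the largest in the other direction, and for Sema3a, past 2-fold in both pairs. They are RefSeq windows of build GRCm38.p6 that run from 250 bases before to 50 bases after the annotated start, written 5′ to 3′ on the gene's strand. Capitals mark the letters CAGGAA, a form of the core that ETS factors bind. CCGGAA, another form of it, and GTAAACA, a forkhead core, were searched as well, on both strands, and none of the motifs overlaps another in these windows. The windows lie at chr6:115994956-115995255 (minus strand, Plxnd1), chr5:13396534-13396833 (plus strand, Sema3a) and chr1:77515039-77515338 (minus strand, Epha4).
Plxnd1: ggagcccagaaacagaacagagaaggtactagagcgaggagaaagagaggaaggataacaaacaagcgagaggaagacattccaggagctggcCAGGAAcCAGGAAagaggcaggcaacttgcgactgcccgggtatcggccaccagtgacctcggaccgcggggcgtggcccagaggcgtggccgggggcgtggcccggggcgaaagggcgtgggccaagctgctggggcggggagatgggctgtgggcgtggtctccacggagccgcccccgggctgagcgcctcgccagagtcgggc
Sema3a: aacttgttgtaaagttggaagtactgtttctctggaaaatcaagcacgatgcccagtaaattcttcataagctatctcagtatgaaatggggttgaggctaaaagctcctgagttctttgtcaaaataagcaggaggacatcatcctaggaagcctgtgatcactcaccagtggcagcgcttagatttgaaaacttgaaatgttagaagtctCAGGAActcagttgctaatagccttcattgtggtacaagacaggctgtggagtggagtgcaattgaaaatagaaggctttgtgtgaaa
Epha4: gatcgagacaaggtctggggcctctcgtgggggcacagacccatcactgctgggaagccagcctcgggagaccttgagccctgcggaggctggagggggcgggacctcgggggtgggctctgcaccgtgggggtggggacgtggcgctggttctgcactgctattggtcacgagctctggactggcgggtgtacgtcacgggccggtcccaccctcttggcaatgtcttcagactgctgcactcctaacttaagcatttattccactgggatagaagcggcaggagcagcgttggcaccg

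The Plxnd1 window held CAGGAA at 2 places, 157 and 150 bases before the start. The Sema3a window held it once, 38 bases before the start, and the Epha4 window held none of the searched letters. CAGGAA occurred in 30.6% of all 32851 promoter windows, in 16 of 64 windows of members (25.0%) and in 2 of 9 windows of members past 2-fold (22.2%). CCGGAA occurred in 14.9% of all windows, in 5 windows of members (7.81%) and in none of those past 2-fold. GTAAACA occurred in 3.65% of all windows and in no window of a member. Windows were found for 50 of the 59 members and for 8 of the 9 past 2-fold. A match is a description of letters, and a window without one says nothing about binding elsewhere.

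Among the semaphorins, 10 of 18 were detected. Sema3a, a secreted repellent that acts through neuropilin-1 and class A plexins, had log2 intensities of 7.35 with doxycycline, 8.61 untreated, 6.10 in Er71-deficient and 7.50 in wild-type cells. It was brightest on the untreated iER71 array and under the detection level on the Er71-deficient array. It was 2.38-fold lower with doxycycline and 2.63-fold lower in Er71-deficient cells, so it lay below the comparison array in both pairs. Untreated iER71 cells themselves were 2.16-fold above wild type for Sema3a.

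Sema6d, a transmembrane semaphorin that binds plexin-A1, had 8.91 with doxycycline, 7.67 untreated, 7.79 in Er71-deficient and 7.45 in wild-type cells. The doxycycline array stood apart from the other 3, which lay within 0.34 of each other. It was 2.37-fold higher with doxycycline than untreated and 1.27-fold higher in Er71-deficient cells than in wild type.

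The other class 6 semaphorins differed less. Sema6a had 8.20 with doxycycline, 7.82 untreated, 7.37 in Er71-deficient and 7.69 in wild-type cells. Sema6b differed by 0.51 on the log2 scale with doxycycline and by exactly 0 in the Er71 pair, and Sema6c by 0.00 and 0.05. None of the 4 class 6 genes was lower with doxycycline, with Sema6c exactly equal. In contrast, Sema3e, the ligand of plexin-D1, was 1.59-fold lower with doxycycline, at 6.19 against 6.86 untreated, and was equal in the Er71 pair at 6.81. Sema5a was 1.51-fold lower with doxycycline, at 5.71 against 6.31 untreated, and 1.09-fold lower in Er71-deficient cells, at 6.31 against 6.44. Sema3f, Sema4b and Sema4d differed by at most 0.24 in size within either pair. Sema3b, Sema3c, Sema3d, Sema4a, Sema4f, Sema4g, Sema5b and Sema7a were not detected.

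In each pair, the member with the largest difference was a plexin. Of 8 plexin genes 7 were detected, and 4 of them passed 2-fold in a pair. Plxnd1, the endothelial receptor of Sema3e, had 9.33 with doxycycline, 7.42 untreated, 6.60 in Er71-deficient and 7.34 in wild-type cells. It was 3.74-fold higher with doxycycline and 1.67-fold lower in Er71-deficient cells. The untreated iER71 and wild-type arrays differed by only 0.09 on the log2 scale for this gene, and the other 2 arrays lay on either side of them.

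Plxnc1, the receptor of Sema7a, had 6.77 with doxycycline, 5.85 untreated, 5.0 in Er71-deficient and 6.70 in wild-type cells. It was above the detection level only with doxycycline and in wild type, so its folds are uncertain. It was 1.90-fold higher with doxycycline and 3.25-fold lower in Er71-deficient cells, with the untreated iER71 array 1.81-fold below wild type.

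Of the class A plexins, which carry class 3 and class 6 semaphorin signals, Plxna2 and Plxna4 lay on the opposite side. Plxna2 had 6.28 with doxycycline, 7.48 untreated, 7.26 in Er71-deficient and 6.63 in wild-type cells. It was 2.31-fold lower with doxycycline and 1.54-fold higher in Er71-deficient cells. Untreated iER71 cells themselves were 1.80-fold above wild type for Plxna2, more than its difference in the Er71 pair. Plxna4 had 5.99 with doxycycline, 7.11 untreated, 7.35 in Er71-deficient and 7.11 in wild-type cells. It was 2.18-fold lower with doxycycline, where it was under the detection level, and 1.18-fold higher in Er71-deficient cells; its deposited values were equal on the untreated iER71 and wild-type arrays. Plxna1 differed by -0.02 with doxycycline and by exactly 0 in the Er71 pair. Plxnb1 and Plxnb2, receptors of class 4 semaphorins, differed by at most 0.16 in size in either pair, and Plxna3 was not detected.

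**Figure D2:**
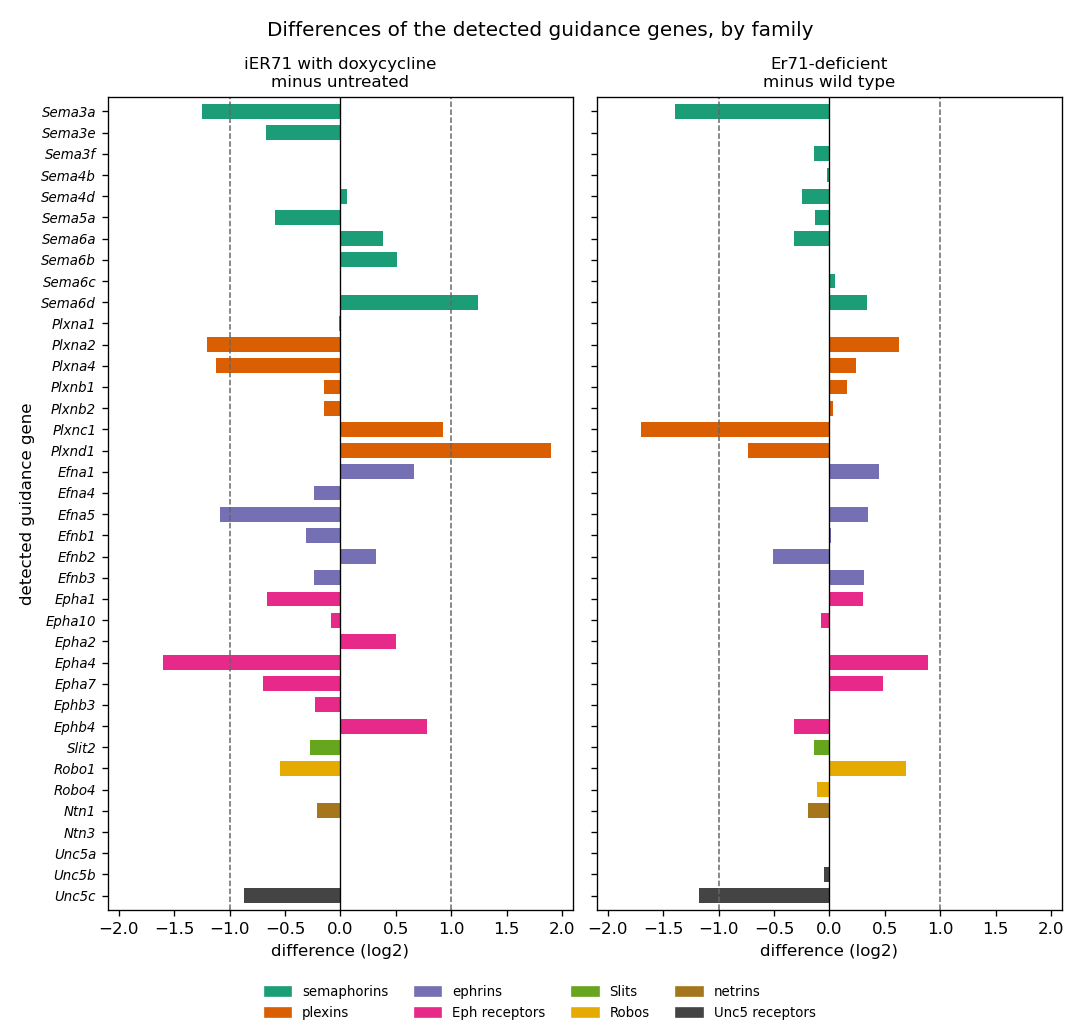
Log2 differences (horizontal axes) of the 38 detected guidance genes (vertical axis), coloured by family, for doxycycline minus untreated (left) and Er71-deficient minus wild type (right); dashed lines mark 2-fold and absent bars mean exactly or nearly equal values. Plxnd1, Plxnc1, Ephb4 and Efnb2 point to the right in the left panel and to the left in the right panel, whereas Epha4, Plxna2 and Efna5 do the reverse and Sema3a and Unc5c point left in both.

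Of the ephrins, 6 of 7 were detected. Efna5, a ligand of EphA receptors held in the membrane by a lipid anchor, had 7.30 with doxycycline, 8.39 untreated, 8.65 in Er71-deficient and 8.30 in wild-type cells. The doxycycline array was lowest and the other 3 lay within 0.35 of each other. It was 2.12-fold lower with doxycycline and 1.28-fold higher in Er71-deficient cells. Efna1, known as a cytokine-induced endothelial ephrin, had 7.17 with doxycycline, 6.51 untreated, 6.47 in Er71-deficient and 6.02 in wild-type cells. It was 1.58-fold higher with doxycycline and 1.36-fold higher in Er71-deficient cells, with wild type lowest and below the detection level.

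Efnb2, the arterial ephrin, had 9.13 with doxycycline, 8.80 untreated, 8.49 in Er71-deficient and 9.0 in wild-type cells. It was 1.25-fold higher with doxycycline and 1.42-fold lower in Er71-deficient cells, both under 2-fold. Its venous receptor Ephb4 had 7.88 with doxycycline, 7.10 untreated, 6.73 in Er71-deficient and 7.05 in wild-type cells. Ephb4 was 1.72-fold higher with doxycycline and 1.25-fold lower in Er71-deficient cells. Ligand and receptor of this pair were both highest on the doxycycline array and lowest on the Er71-deficient array, and differed in the order of the other arrays. Efna4, Efnb1 and Efnb3 were lower with doxycycline by 0.24 to 0.31 on the log2 scale and differed by at most 0.31 in the Er71 pair, and Efna2 was not detected.

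Of the 12 Eph receptors 7 were detected, 5 of class A and 2 of class B. Epha4, which binds ephrins of both classes, had 5.87 with doxycycline, 7.47 untreated, 8.13 in Er71-deficient and 7.23 in wild-type cells. It was 3.03-fold lower with doxycycline, where it was below the detection level, and 1.85-fold higher in Er71-deficient cells. Epha7 had 6.30 with doxycycline, 7.0 untreated, 6.48 in Er71-deficient and 6.0 in wild-type cells, being 1.62-fold lower with doxycycline and 1.40-fold higher in Er71-deficient cells. The untreated iER71 array stood above wild type for Epha7 by a value that rounds to 2.00-fold and lay just under the call.

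Epha1 had 6.07 with doxycycline, 6.74 untreated, 6.17 in Er71-deficient and 5.86 in wild-type cells. It was 1.58-fold lower with doxycycline, 1.23-fold higher in Er71-deficient cells and 1.83-fold higher in untreated iER71 cells than in wild type. Epha2 had 7.17 with doxycycline and exactly 6.67 on each of the other arrays; a dimmer Epha2 probe set, at log2 5.22 to 5.61, had the opposite sign in the iER71 pair (-0.26). Epha10 and Ephb3 differed by at most 0.23 in size within either pair. Epha3, Epha5, Epha6, Epha8 and Ephb1, several of them best known from neurons, were not detected.

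No Slit, Robo or netrin gene passed 2-fold within either pair. Slit2, a secreted Robo ligand, had 6.17 with doxycycline, 6.45 untreated, 5.92 in Er71-deficient and 6.06 in wild-type cells, and Slit1 was not detected. Robo1, its receptor, had 8.58 with doxycycline, 9.13 untreated, 9.51 in Er71-deficient and 8.82 in wild-type cells. Robo1 was 1.46-fold lower with doxycycline and 1.61-fold higher in Er71-deficient cells. Robo4, the endothelial Robo, had 6.17 on 3 arrays and 6.05 in Er71-deficient cells, at the edge of detection throughout. Robo2 and Robo3 were not detected.

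Ntn1, a secreted netrin, was above the detection level on the untreated iER71 array alone, at 6.25, with 6.04 with doxycycline, 5.95 in Er71-deficient and 6.15 in wild-type cells. Ntn3 was equal on all 4 arrays at 6.43, and Ntn4 was not detected.

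The Unc5 receptors carry the repulsive netrin signal. Unc5c had 6.82 with doxycycline, 7.69 untreated, 7.74 in Er71-deficient and 8.92 in wild-type cells. Wild type stood above the other 3 arrays. It was 1.83-fold lower with doxycycline, 2.27-fold lower in Er71-deficient cells and 2.33-fold lower in untreated iER71 cells than in wild type. Unc5b, the endothelial netrin receptor, had 6.80 on 3 arrays and 6.76 in Er71-deficient cells, and Unc5a was at 6.32 on each array. Unc5d was not detected, nor was Unc5cl, which is not a netrin receptor.

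The pairs of the design share no array and were set side by side. Of the 38 detected members, 18 (47.4%) had opposite signs in the pairs and 8 (21.1%) the same sign, against 43.0% and 29.7% of all detected genes; the rest had a difference of exactly 0 in at least 1 pair. If the titles of the iER71 arrays are right, these turn round: 18 members then have the same sign and 8 opposite signs, against 43.0% and 29.7% of all detected genes, and the same holds for the counts that follow, so that Sema3a would be the 1 member past 2-fold in both pairs with opposite signs. No member passed 2-fold in both pairs with opposite signs, where 0.78% of detected genes did, and 1, Sema3a, did with the same sign, where 0.0565% did. At a difference of 0.58 (1.5-fold), 4 members (10.5%) passed in both pairs with opposite signs, against 2.73% of all detected genes. Of those, Plxnd1 and Plxnc1 were higher with doxycycline and lower in Er71-deficient cells, and Epha4 and Plxna2 were lower with doxycycline and higher in Er71-deficient cells. Untreated iER71 cells differed from wild type by 1.81-fold for Plxnc1 (lower) and 1.80-fold for Plxna2 (higher), against 1.06-fold for Plxnd1 and 1.18-fold for Epha4. Sema3a and Unc5c, lower in both pairs, were the 2 members (5.26%) with the same sign at 0.58, against 0.328% of all detected genes.

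**Figure D3:**
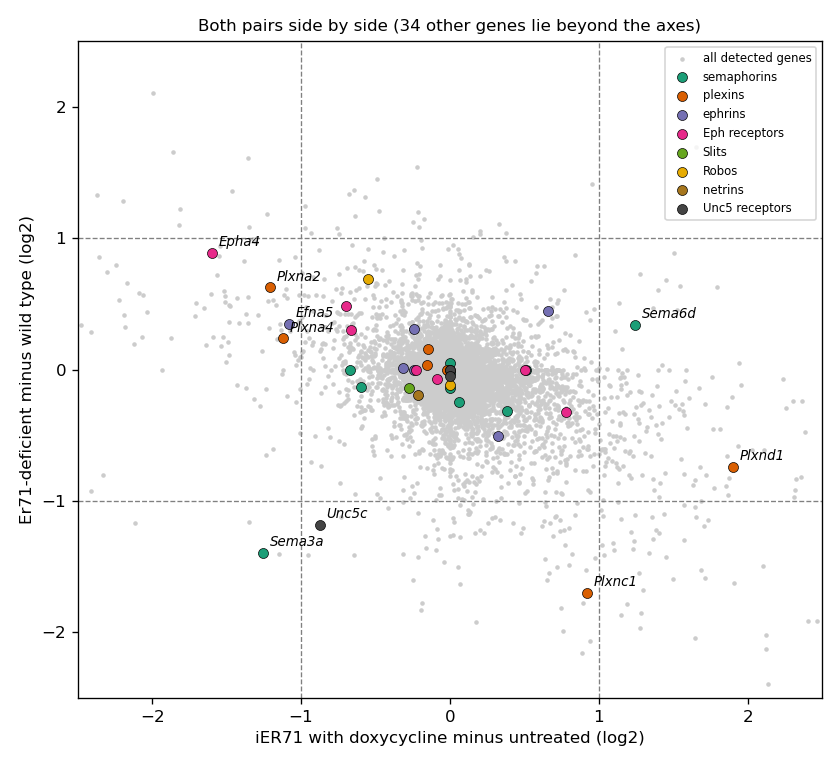
Log2 difference of Er71-deficient minus wild type (vertical axis) against doxycycline minus untreated (horizontal axis) for the 38 detected guidance genes, coloured by family, and all 8843 detected genes in grey; dashed lines mark 2-fold, and 34 other genes lie beyond the axes at 2.5. Plxnd1 and Plxnc1 lie at the lower right, Epha4 and Plxna2 at the upper left, and Sema3a and Unc5c at the lower left.

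The members' median difference in the iER71 pair was -0.12 on the log2 scale, against 0.00 for all detected genes, and the median of its size was 0.36, against 0.11. With doxycycline 10 members were higher, 21 lower and 7 exactly equal. In the Er71 pair the median was 0.00, against -0.01, and the median size 0.18, against 0.10, with 16 members higher, 16 lower and 6 equal. With detection at the 75th percentile, which left 11 members, the medians were -0.016 in the iER71 pair and -0.32 in the Er71 pair. The median size was 0.55 for receptors and 0.31 for ligands in the iER71 pair, and 0.24 and 0.14 in the Er71 pair; these were not tested against each other. Exactly equal values made up 18.4% of the members in the iER71 pair and 15.8% in the Er71 pair, against 16.2% and 16.4% of all detected genes.

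By the doxycycline and genotype labels, untreated iER71 and wild-type cells had no change of ER71, and their arrays also differed. By its title, ER71 overexpressed, the untreated iER71 array did have such a change. Between untreated iER71 and wild-type cells, 2 of 38 members passed 2-fold, Sema3a higher and Unc5c lower, against 0.995% of all detected genes. With the offset of 32 on the linear scale Sema3a was under 2-fold there (0.99), which left 1 member, whereas median centring, quantile normalization and cyclic loess each gave 3. These 2 arrays are the ones against which the pairs are set, so the same-sign differences of Sema3a and Unc5c stand beside a difference of their own between lines. Between doxycycline-treated iER71 cells, whose array is the one titled control, and wild-type cells, 6 members passed 2-fold, against 4.1% of all detected genes: Plxnd1 (3.97-fold), Sema6d (2.75-fold) and Efna1 (2.22-fold) were higher with doxycycline, and Unc5c (4.28-fold), Epha4 (2.58-fold) and Plxna4 (2.18-fold) were lower.

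Other genes of guidance signalling were taken from 3 lists. Of 10 detected co-receptors and adhesion partners, none was 2-fold higher with doxycycline and none passed in the Er71 pair. With doxycycline 1 (10.0%) was 2-fold lower, against 1.23% of all detected genes. That gene, L1cam, an adhesion molecule of the Sema3a receptor complex, had 4.90 with doxycycline, 6.44 untreated, 7.57 in Er71-deficient and 6.63 in wild-type cells. It was 2.91-fold lower with doxycycline, where it was below the detection level, and 1.92-fold higher in Er71-deficient cells. Of 9 detected further cues and receptors, 1 (11.1%) was 2-fold lower with doxycycline, against 1.23% of all detected genes, and none passed otherwise. It was the chemokine receptor Cxcr4, with 5.96 with doxycycline, 8.02 untreated, 8.75 in Er71-deficient and 8.18 in wild-type cells (4.18-fold lower with doxycycline, where it was below the detection level, and 1.49-fold higher in Er71-deficient cells).

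Of 42 detected signalling genes, 3 (7.14%) passed 2-fold upwards with doxycycline and 2 (4.76%) downwards, against 2.41% and 1.23% of all detected genes. In Er71-deficient cells 1 (2.38%) was higher and 4 (9.52%) were lower, against 0.43% and 1.58% of all detected genes. Vav3, a guanine nucleotide exchange factor, had 8.91 with doxycycline, 6.79 untreated, 5.60 in Er71-deficient and 7.73 in wild-type cells, so it was 4.36-fold higher with doxycycline and 4.38-fold lower in Er71-deficient cells. The Src-family kinase Fyn had 9.40 with doxycycline, 8.17 untreated, 7.01 in Er71-deficient and 8.37 in wild-type cells, 2.34-fold higher with doxycycline and 2.58-fold lower in Er71-deficient cells. The endothelial phosphatase Ptprb had 7.94 with doxycycline, 6.91 untreated, 5.65 in Er71-deficient and 6.77 in wild-type cells, 2.04-fold higher with doxycycline and 2.17-fold lower in Er71-deficient cells. These 3 genes were each highest with doxycycline and lowest in Er71-deficient cells, where Vav3 and Ptprb were below the detection level.

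Dpysl5, of the collapsin response mediator family, was lowest with doxycycline and highest in Er71-deficient cells, with 6.63 with doxycycline, 7.86 untreated, 8.21 in Er71-deficient and 7.03 in wild-type cells. It was 2.34-fold lower with doxycycline and 2.27-fold higher in Er71-deficient cells. Rnd3, which opposes cell contractility, had 8.30 with doxycycline, 9.85 untreated, 10.39 in Er71-deficient and 9.52 in wild-type cells, so it was 2.93-fold lower with doxycycline and 1.82-fold higher in Er71-deficient cells. Rnd2 was 2.32-fold lower in Er71-deficient cells, at 6.52 against 7.74 in wild type, and lay at 6.79 with doxycycline and 6.88 untreated. The medians of the lists lay between -0.07 and 0.09 on the log2 scale in both pairs.

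**Figure D4:**
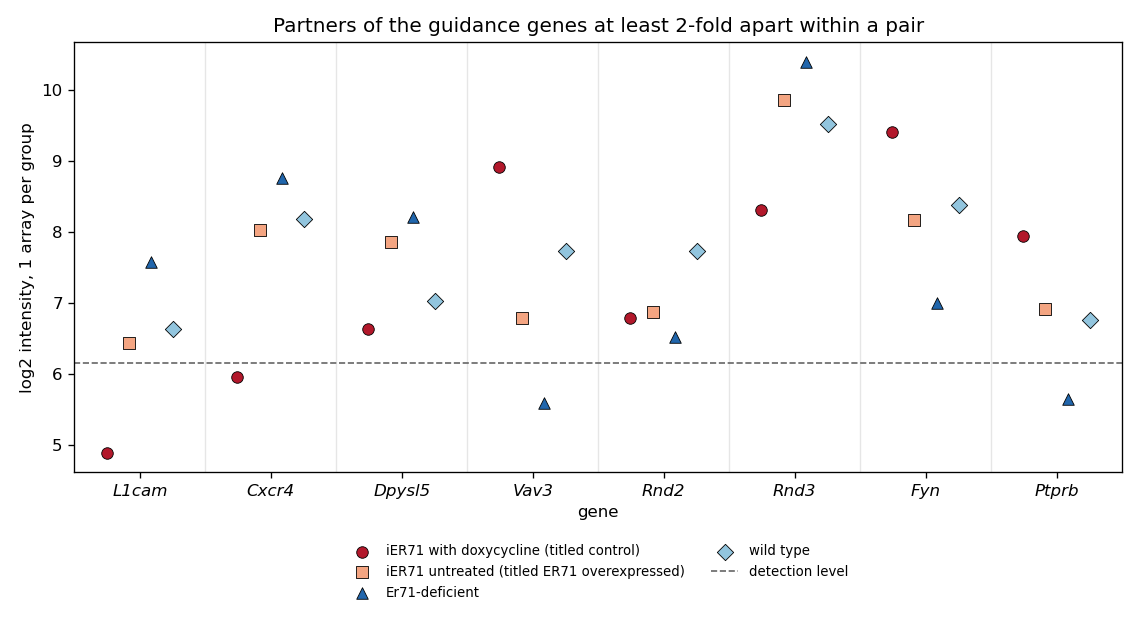
Log2 intensity (vertical axis) of the 8 partner genes at least 2-fold apart within a pair (horizontal axis); each symbol is 1 array, and the dashed line is the detection level at log2 6.16. Vav3, Fyn and Ptprb are highest with doxycycline and lowest in Er71-deficient cells, and L1cam, Cxcr4, Dpysl5 and Rnd3 are lowest with doxycycline and highest in Er71-deficient cells.

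Markers of cell types that the sorted cells could hold also differed between the arrays. The detected guidance members went both ways with doxycycline, with 10 higher, 21 lower and 7 equal. Of 24 detected endothelial markers, 18 were 2-fold higher with doxycycline and none lower, and 12 were 2-fold lower in Er71-deficient cells and none higher. The summed intensity of the endothelial markers was 15469 with doxycycline, 5529 untreated, 2053 in Er71-deficient and 6162 in wild-type cells. Their mean log2 intensity was 8.68, 7.24, 5.78 and 7.39 in that order. Both were highest with doxycycline and lowest in Er71-deficient cells. Of the members named above for endothelial expression, Plxnd1, Ephb4 and Efnb2 had that order. Robo4 (6.17) and Unc5b (6.80) did not, with equal values with doxycycline, untreated and in wild type. Plxnc1, Sema4d and Sema6a had that order as well. Of all detected genes, 29.6% were brightest with doxycycline and 29.5% dimmest in Er71-deficient cells, each counted alone. Sums follow the brightest genes most, and the endothelial list includes Kdr, the sort marker. Of 13 detected streak and paraxial mesoderm markers, 6 (46.2%) were 2-fold lower with doxycycline. In Er71-deficient cells 3 (23.1%) of these markers were 2-fold higher, and none went the other way in either pair. The sums of the streak and paraxial markers were 1410 with doxycycline, 4164 untreated, 4162 in Er71-deficient and 2647 in wild-type cells. Their mean log2 intensities were 6.33, 7.455, 7.54 and 6.98. Of 13 detected cardiac mesoderm markers, 1 (7.69%) was 2-fold higher and 4 (30.8%) were lower with doxycycline, and 3 (23.1%) were higher in Er71-deficient cells.

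Of 7 detected neuroectoderm markers, 1 (14.3%) was 2-fold lower with doxycycline and none passed in the Er71 pair. The neural genes Pax6 and Dcx were not detected. Of 13 detected blood markers, 1 (7.69%) was higher with doxycycline and 6 (46.2%) were lower in Er71-deficient cells. Of 11 pluripotency markers, 2 (18.2%) were higher and 2 (18.2%) lower with doxycycline, and 1 (9.09%) was higher in Er71-deficient cells. Of 9 endoderm markers, 2 (22.2%) were higher and 3 (33.3%) lower with doxycycline, and 1 (11.1%) was lower in Er71-deficient cells. The endoderm list shares Sox17 with the endothelial list, Gata6 with the cardiac list and Cxcr4 with the further cues and receptors. Sox17 is thus counted as higher and Cxcr4 as lower with doxycycline in both of their lists. None of 3 detected fibroblast feeder markers passed in either pair. In lists this small 1 gene is a large share, and no list was tested against all detected genes. The part of these cell types in the guidance gene differences was not tested. In sorted bulk cells, fewer cells of a type and less RNA per cell cannot be told apart.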

How the data were processed

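RNA from sorted cells was amplified and hybridised to 1 array per group, per the labels' protocols. The values the authors deposited are intensities on a linear scale, 1 per array for 23332 probe sets. Affymetrix Expression Console, RMA and the build mm8 are listed in the submitters' processing notes, without versions or roles. Log2 was taken of the deposited intensity, with no other scaling. Of all probe sets, 14996 had 1 symbol, and the brightest per gene was kept, which left 14860 genes; each of the 59 members kept its symbol in the RefSeq gene table. Many deposited values are exactly equal on at least 2 arrays (39.6% of probe sets), which draws medians towards 0. No detection calls came with the values, so the background is unknown, and the number of arrays limits the precision. Groups follow the doxycycline and genotype labels. The members and lists were chosen with earlier results of these data known. Members past 2-fold in either pair, or between the untreated iER71 and wild-type arrays, are given in full, and members between 1.5-fold and 2-fold in either pair with their differences. Values of some members with smaller differences, such as Efnb2, Sema6a, Slit2 and Ntn1, were added for their roles, after the values were seen; the rest are given by range or name. Partner genes past 2-fold are named. Python 3.11.15, pandas 2.3.3, R 4.3.3 and limma 3.58.1 (cyclic loess) were used.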

Additional observations from a re-analysis of the deposited data

How the results depend on the processing

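No paired analysis was possible because each group had 1 array. Median centring, quantile normalization, cyclic loess and the mean of probe sets left each count of members within 1.5 times its value. Over 12 differences of single members and the alternatives that keep them detected, 77 values stayed past 2-fold, 4 fell under it and none changed sign. The 4 came from an offset of 32 on the linear scale, namely Efna5 (-0.95), Plxna2 (-0.95) and Plxna4 (-0.84) with doxycycline and Sema3a between untreated iER71 and wild type (0.99). With that offset 2 members were lower with doxycycline and 1 passed between those arrays; among all genes 137 were higher and 72 lower with doxycycline, and 17 higher and 78 lower in Er71-deficient cells, against 213, 109, 38 and 140 as reported. With detection at the 75th percentile 11 members were left, 3 were lower with doxycycline, the medians were -0.016 (doxycycline minus untreated) and -0.32 (Er71-deficient minus wild type), and 23 genes were higher in Er71-deficient cells. With no filter all 59 members counted, and 78 genes were higher in Er71-deficient cells. At a threshold of 0.58, 5 members were higher and 10 lower with doxycycline, 3 were higher in Er71-deficient cells, 4 passed in both pairs with opposite signs and 2 with the same sign, and 6 passed between untreated iER71 and wild type; among all genes 565 were higher and 283 lower with doxycycline, and 140 higher and 397 lower in Er71-deficient cells. These shifts follow from the changed filter, offset or threshold. Setting the doxycycline array, titled control, in place of the untreated one against wild type (chosen after seeing the data), 6 members passed.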

Other observations

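The share of detected guidance genes for which each array was the single brightest, or the single dimmest, is given here beside the share of all detected genes. The doxycycline array was brightest for 10 of 38 members (26.3%), against 29.6%, and dimmest for 13 (34.2%), against 26.8%. Untreated iER71 was brightest for 10 (26.3%), against 12.8%, and dimmest for 1 (2.63%), against 15.0%. The Er71-deficient array was brightest for 7 (18.4%), against 17.7%, and dimmest for 14 (36.8%), against 29.5%. Wild type was brightest for 3 (7.89%), against 26.0%, and dimmest for 7 (18.4%), against 12.5%. These shares were not tested.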
